A study of Mus musculus with 2 samples.

Results

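The cells described here are dendritic cells (DCs) that carried at least 2 unique molecular identifiers (UMIs, counts of single captured RNA molecules) of Tnfsf9 and at least 2 of Batf, called activated cells below, so the members were chosen by their measured Tnfsf9 and Batf counts. They were taken from barcodes assigned to 1 hashtag, with at least 500 genes and at most 10% mitochondrial UMIs. Further limits were at most 1 UMI of Fscn1, at most 1 of Xcr1 and Clec9a together, at most 1 of Cd3e, and fewer than 10 of C1qa, C1qb and C1qc together. Of 15480 cells, 712 passed (4.60%). The study profiled sorted CD3-B220-CD11c+MHC-II+ DCs of untreated Gm38411-iCre-hCD2 reporter mice, 15 days old, by droplet sequencing of RNA 3′ ends. The tissues were small intestinal lamina propria (siLP) and mesenteric lymph node (mLN), with 3 biological replicates of each, and 6 hashtag antibodies (2, 4, 5, 6, 8 and 9) marked the replicates. All replicates carry the same genotype and no group without the reporter was analysed here. The labels do not tie a hashtag to a tissue, so each hashtag is described by its number.

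TNFSF9 (4-1BBL) is a ligand of the TNF superfamily that engages the costimulatory receptor 4-1BB on T cells. BATF is a transcription factor of the AP-1 family that binds DNA together with JUN proteins and with IRF4 or IRF8. In DCs, stimulation through innate receptors or TNF receptors activates NF-kB. NF-kB then drives its own inhibitors, adhesion and costimulatory molecules, cytokines and survival genes, while a separate maturation programme with high Fscn1 and Ccr7 marks DCs that migrate to lymph nodes.

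The comparison cells, called reference cells, had at least 1 Sirpa UMI, no Tnfsf9 and no Batf UMI, and the same exclusions. They numbered 3581, of which 2099 were in hashtags 6, 8 and 9. A further 522 cells had at least 2 Batf UMIs and no Tnfsf9 (Batf only), 805 had at least 2 Tnfsf9 UMIs and no Batf (Tnfsf9 only), both with Sirpa. Migratory cells (958) were gated by at least 2 Fscn1 and at least 2 Ccr7 UMIs. The genes of the gates describe how cells were chosen. They went through the fit with all other genes, but their results are not counted or read as tests.

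All 6 listed DC markers (Flt3, Zbtb46, Itgax, H2-Ab1, Cd74 and Dpp4) and all 7 cDC2 markers were detected in activated cells. Summed over the list, the cDC2 markers reached 996 to 1122 CPM (UMI counts scaled to a common library total) in activated libraries and 842 to 876 in reference libraries of the same hashtags. This sum includes Irf4 and also Sirpa, which the reference gate required. The 6 cDC1 markers summed to 172 to 218 CPM in activated and 299 to 326 in reference libraries. Among them, Xcr1 and Clec9a were limited by both gates. Sirpa, the inhibitory receptor that marks cDC2, was detected in 645 of the 712 cells (90.6%), and the gate did not require it. Its level was 202 to 227 CPM in activated libraries and 169.6 CPM in barcodes of 1 to 100 UMIs, which are too shallow to count as cells, so a single Sirpa UMI does not mark a cell. Thinned to 5000 UMIs, Sirpa was detected in 62.3% of activated cells and in 77.8% of macrophage-gate cells. Of the 6 neutrophil markers, S100a8, S100a9 and Ly6g were at 0, and of the 6 monocyte markers, Ly6c2, Vcan and Chil3 were at 0. The summed monocyte markers, 1310.2 to 1551 CPM, came almost wholly from Plac8, at 1301 to 1541 CPM in activated and 1330.1 to 1430 in reference libraries. Macrophage markers summed to 150.4 to 179 CPM in activated and 165 to 208 in reference libraries, with all 7 detected. Among them, C1qa, C1qb and C1qc were limited by both gates, so these sums follow in part from the gates. Cd3e, also limited by both gates, was at 0 in activated cells, and the 7 T or NK markers summed to 31.1 to 54.0 CPM. The 5 markers of RORgt+ DCs summed to 2.75 to 4.17 CPM in activated libraries and to 14.5 to 53.8 in reference libraries. The added reporter sequences hCD2 and iCre and the gene Gm38411 had 0 UMIs in activated cells, and reference cells held 5, 1 and 16 UMIs of them. The added sequence tdTomato was seen in both, at 117, 147 and 162 CPM in activated and 101, 152 and 189 CPM in reference libraries of hashtags 6, 8 and 9. Barcodes of 1 to 100 UMIs held tdTomato at 129 CPM, within the range of both classes, so its presence is not read as expression.

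The hashtags form sets of unlike cells, which bears on every comparison. In reference cells, which have no Tnfsf9 or Batf UMI, Il1b was at 126, 132 and 129 CPM in hashtags 2, 4 and 5 (CPM from here on scaled for library composition), whereas it was at 1704, 2337 and 1756 CPM in hashtags 6, 8 and 9. Nfkbia was at 261, 274 and 287 CPM against 680.5, 809 and 711 CPM, and H2-Ab1 at 1885, 1987 and 1810.2 against 4835, 5836 and 5109 CPM. Reference cells of hashtags 2, 4 and 5 also had more mitochondrial UMIs, with medians of 4.16 to 4.56% against 1.46 to 1.63%. Below, reference values and means are those of hashtags 6, 8 and 9, the hashtags that hold activated cells.

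Of the 3 further marker genes proposed for these cells, none passed the test in the fit of all hashtags, and all 3 had higher means in activated than in reference cells. Ccr7, the receptor that guides DCs to lymph nodes, was at 468, 495 and 482 CPM in activated cells of hashtags 6, 8 and 9. In reference cells of the same hashtags it was at 322, 305 and 246 CPM (log2 fold change 1.02, SE 0.34, edgeR adjusted p = 0.144). The activated values lay above every reference value of these hashtags. Il1b, which encodes the inflammatory cytokine IL-1β, was at 3128, 4193 and 3083 CPM against 1704, 2337 and 1756 CPM (log2 fold change 0.68, SE 0.25, edgeR adjusted p = 0.174). Ptger4, a receptor for prostaglandin E2, was at 476, 410.0 and 436 CPM against 283, 299.9 and 304 CPM (log2 fold change 0.87, SE 0.37, edgeR adjusted p = 0.286). Neither gene overlapped between the groups. In a fit of hashtags 6, 8 and 9 alone, added after the data were seen, all 3 were called, with edgeR adjusted p of 2.35e-04 for Ccr7, 2.00e-04 for Il1b and 3.63e-05 for Ptger4. With each cell thinned to 5000 UMIs, all 3 genes were detected together in 302 of 710 activated cells (42.5%) and in 319 of 1666 reference cells (19.1%). Ccr7 was detected in 60.1% of thinned activated cells, in 35.6% of reference cells and in 13.6% of cells of the C1q-high macrophage gate. These shares describe detection and were not tested. In barcodes too shallow to count as cells, Ccr7 was at 270, Il1b at 1348 and Ptger4 at 201 CPM over all UMIs. On that scale Ccr7 lay within its range in reference libraries (218 to 300 CPM), so its detection in reference cells is not read as expression. Il1b and Ptger4 lay below their reference ranges. Macrophage-gate cells had a median of 13398 UMIs and activated cells 14448.5.

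Activated cells were found in 3 of the 6 hashtags. Hashtag 6 held 205 of 3091 cells (6.63%, Clopper-Pearson 95% interval 5.78 to 7.57%), hashtag 8 held 193 of 2547 (7.58%, 6.58 to 8.67%) and hashtag 9 held 314 of 4865 (6.45%, 5.78 to 7.18%). The 3 intervals overlapped. Hashtags 2, 4 and 5 held 0 of 1485, 0 of 1619 and 0 of 1873 cells, which allows shares of up to 0.202, 0.185 and 0.160% by a limit of 3 counts; the upper Clopper-Pearson bounds drawn in the plot of shares are 0.248, 0.228 and 0.197%. Intervals and limits cover counting error only. Depth moved with this split: reference cells had medians of 5084 to 5820 UMIs in hashtags 2, 4 and 5 and 10704 to 11276 in hashtags 6, 8 and 9. With every cell thinned to 5000 UMIs, the shares were 0, 0 and 0% against 1.11, 1.75 and 1.13%, from 29, 36 and 47 cells, so the hashtags without activated cells were the same and the level was lower. With only 1 UMI of each gene required, hashtags 2, 4 and 5 held 0.337, 0.618 and 0.534% and hashtags 6, 8 and 9 held 19.2, 19.9 and 16.8%.

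**Figure D1:**
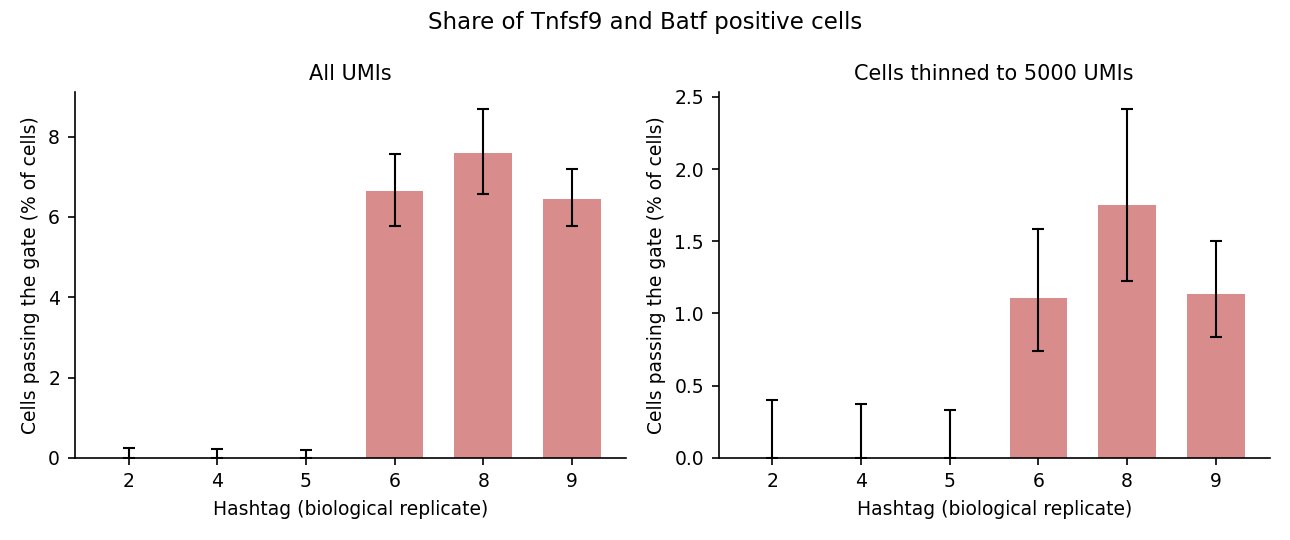
Bars give the share of cells (percent, y axis) that passed the gate in each hashtag (x axis), with Clopper-Pearson 95% intervals; the left panel uses all UMIs and the right panel cells thinned to 5000 UMIs, on its own scale. Hashtags 2, 4 and 5 are at 0% in both panels, and hashtags 6, 8 and 9 lie between 6.45 and 7.58% on the left and between 1.11 and 1.75% on the right.

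The gate genes themselves differed between hashtags over all cells. Tnfsf9 was at 9.85, 10.1 and 12.1 CPM over all UMIs in hashtags 2, 4 and 5 and at 87.8, 112 and 84.6 in hashtags 6, 8 and 9. Batf was at 18.7, 23.6 and 24.7 against 58.7, 61.7 and 51.7 CPM. In thinned cells of hashtags 6, 8 and 9 that met the other limits of the gate, both genes were detected together in 11.4, 11.4 and 9.57% of cells, where the product of their separate shares was 8.79, 9.54 and 7.0%. Activated cells held medians of 4 Tnfsf9 and 3 Batf UMIs. At the border of the gate, 178 cells had exactly 2 Tnfsf9 UMIs and 302 exactly 2 Batf UMIs. Just outside were 285 cells with 1 Tnfsf9 UMI and at least 2 of Batf, and 598 cells with 1 Batf UMI and at least 2 of Tnfsf9. In barcodes too shallow to count as cells, Tnfsf9 was at 60.0 and Batf at 46.3 CPM over all UMIs. A single UMI of either gene is therefore not read as expression. How far such UMIs brought cells at the border into the gate was not tested. Of 785 cells that met both minimums, the limits on Fscn1, on Xcr1 and Clec9a, and on C1q were exceeded by 30, 33 and 15 cells.

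Summed activated libraries held 3273258, 2864646 and 5034385 UMIs in hashtags 6, 8 and 9. Activated cells were deeper than reference cells of the same hashtag, with medians of 14787, 13818 and 14591 against 10750, 10704 and 11276 UMIs, so depth moved with the comparison. The fit of summed libraries, with the hashtag as a term, called 219 of 12065 genes between activated and reference cells at an edgeR adjusted p under 0.05 (1.82%). Of these, 129 were higher (1.07%) and 90 lower (0.746%) in activated cells. The fit takes in the other gates and all 6 hashtags, and its hashtag terms are shared by all gates, so a fitted log2 fold change can differ from the ratio of the means printed beside it. Hashtags 6, 8 and 9 alone gave 738 higher (7.32%) and 565 lower (5.6%) of 10088 genes, and 218 of the 219 genes were among them. With both classes limited to the middle range of activated depth, 516 were higher and 345 lower, and 114 of the 129 and 76 of the 90 genes were among these. Without hashtag 6, 8 or 9 in turn, the count of calls was 19, 26 and 26, and without the hashtag as a term (no replicate block) it was 26. Of the named genes below, Socs3, Stat5a, Dusp2, Mmd, Il22ra2, Ass1 and Pxdc1 were called against reference cells without any 1 of hashtags 6, 8 and 9, and each of the others lost its call without at least 1 of them.

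**Figure D2:**
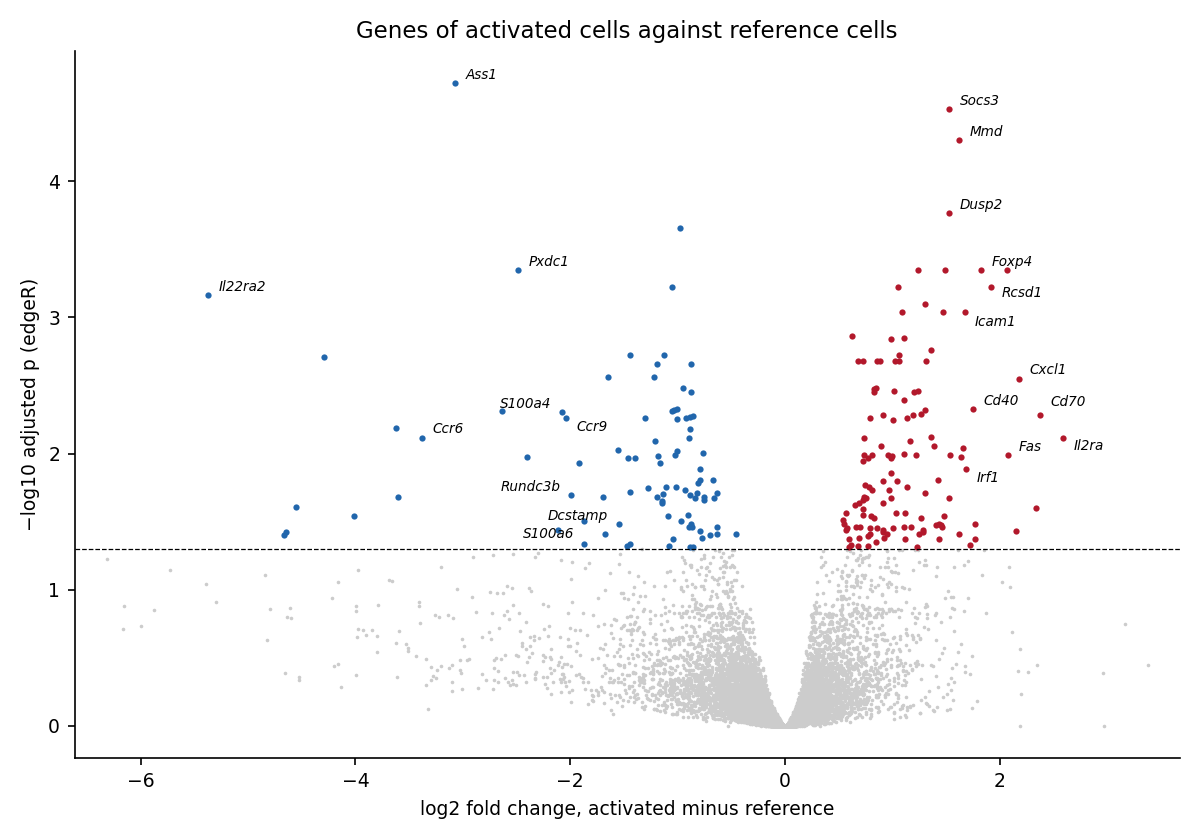
Each point is a gene, with its log2 fold change between activated and reference cells on the x axis and the −log10 adjusted p of edgeR on the y axis; the dashed line marks an adjusted p of 0.05, red points are the 129 genes called higher and blue points the 90 called lower. Il22ra2 and Ass1 stand far to the left, and Il2ra, Cd70 and Cxcl1 are labelled at the right edge of the called genes.

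NF-kB subunits and regulators were called in 1 direction only. Of 26 tested members, 6 were called higher and 0 lower, against 1.07% higher over all genes, and the list's median log2 fold change was 0.48 where that of all genes was -0.05. Hashtags 6, 8 and 9 alone called 17 higher and 0 lower, against 7.32% higher and 5.6% lower over all genes. Nfkbia, the inhibitor that holds NF-kB in the cytoplasm and is itself an NF-kB target, was at 1654, 1727 and 1459 CPM against 680.5, 809 and 711 CPM (log2 fold change 1.11, SE 0.17, edgeR adjusted p = 0.00141). Every activated library was above every reference library. In barcodes too shallow to count as cells, Nfkbia was at 694 CPM over all UMIs, a level like that of reference cells. Nfkbiz, a nuclear regulator of secondary response genes, averaged 957 ± 60.2 CPM against 429 ± 36.6 CPM (SD, n = 3; log2 fold change 1.06). Tnip3, which restrains NF-kB signalling, averaged 2091 against 975 CPM, and Nfkbib, a second cytoplasmic inhibitor, 151 against 85.3 CPM. Cflar, an inhibitor of caspase 8, averaged 338 against 155 CPM. Nfkb1, the p105 and p50 subunit, rose by 0.73 on the log2 scale, to 2074 CPM. Relb, the subunit of the alternative pathway, was at 228 against 188 CPM and was not called in the fit of all hashtags (edgeR adjusted p = 0.765). Tnfaip3, which encodes the feedback enzyme A20, was at 1002 against 576 CPM (edgeR adjusted p = 0.108).

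The promoters of 4 of the called genes are shown because each holds a match to the NF-kB consensus, given in capitals. The windows run from 250 bases before to 50 bases after the start site, from RefSeq on GRCm38.p6. They lie at chr12:55492598-55492897 on the minus strand for Nfkbia, chr6:65590148-65590447 on the plus strand for Tnip3, chr11:53769764-53770063 on the plus strand for Irf1, and chr5:90890995-90891294 on the plus strand for Cxcl1. The match begins at position -29 from the start site in Nfkbia, -54 in Tnip3 and -13 in Irf1 (at 1 of its 2 start sites in the table), and Cxcl1 has a pair of overlapping matches at -71 and -70.
Nfkbia: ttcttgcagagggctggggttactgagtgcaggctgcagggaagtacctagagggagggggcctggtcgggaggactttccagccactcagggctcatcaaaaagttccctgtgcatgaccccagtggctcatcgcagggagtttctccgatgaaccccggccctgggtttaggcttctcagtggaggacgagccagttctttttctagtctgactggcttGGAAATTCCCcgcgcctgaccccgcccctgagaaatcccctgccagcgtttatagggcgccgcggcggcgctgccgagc
Tnip3: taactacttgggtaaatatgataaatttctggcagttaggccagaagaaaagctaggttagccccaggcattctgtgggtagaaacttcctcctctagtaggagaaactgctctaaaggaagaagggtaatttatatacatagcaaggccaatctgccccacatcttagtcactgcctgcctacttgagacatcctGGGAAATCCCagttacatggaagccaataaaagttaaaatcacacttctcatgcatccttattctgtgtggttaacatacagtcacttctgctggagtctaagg
Irf1: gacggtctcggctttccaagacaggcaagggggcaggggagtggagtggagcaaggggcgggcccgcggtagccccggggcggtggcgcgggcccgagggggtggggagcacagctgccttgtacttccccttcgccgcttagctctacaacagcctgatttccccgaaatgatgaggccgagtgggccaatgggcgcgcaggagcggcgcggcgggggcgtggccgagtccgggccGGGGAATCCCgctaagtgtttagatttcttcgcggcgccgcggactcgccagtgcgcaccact
Cxcl1: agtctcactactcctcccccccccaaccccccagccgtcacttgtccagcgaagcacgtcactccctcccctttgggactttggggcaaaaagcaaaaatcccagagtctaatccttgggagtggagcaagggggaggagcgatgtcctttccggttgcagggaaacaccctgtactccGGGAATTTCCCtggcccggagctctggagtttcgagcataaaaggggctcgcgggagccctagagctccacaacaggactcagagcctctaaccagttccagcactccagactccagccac
Of the 129 genes called higher, 103 had a promoter in the table and 21 of them (20.4%) held the NF-kB consensus on either strand. The share was 4.11% of 73 genes called lower, 6.23% of 9315 tested genes with a promoter, and 5.14% of all 27025 genes with a promoter. The AP-1 element TGANTCA was in 11.7% of genes called higher, 9.59% of genes called lower, 6.11% of tested genes and 8.97% of all genes with a promoter. Of 30 named higher genes with a promoter, 10 held the NF-kB consensus: Casp4, Cxcl1, Ebi3, Gng4, Il2ra, Irf1, Nfkbia, Stat5a, Tmem39a and Tnip3. The AP-1 element was in 6, namely Atp6v0a1, Bcl2a1a, Bcl2a1d, Csrnp1, Fas and Il1a. These shares are descriptions of letters in a window and no test was run.

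Among ligands and receptors of the TNF superfamily, 1 of 9 tested ligands (Cd70) and 2 of 15 receptors (Cd40 and Fas) were called higher and 0 lower in the fit of all hashtags (1.07% higher over all genes). The fit of hashtags 6, 8 and 9 alone called 4 of 7 ligands higher (Cd70, Tnf, Tnfsf4 and Tnfsf14) and 1 lower (Ltb), and 3 of 13 receptors higher (Cd40, Fas and Tnfrsf1b). Over all genes that fit called 7.32% higher and 5.6% lower. Cd40, the receptor through which T cells license DCs, was at 115, 111 and 111 CPM against 35.2, 37.7 and 34.6 CPM (log2 fold change 1.75, SE 0.32, edgeR adjusted p = 0.00468). The activated libraries were close to each other, and the fitted level was 3.37-fold the reference level. Fas, the death receptor, was at 20.1, 23.1 and 15.2 CPM against 3.97, 4.40 and 7.19 CPM (log2 fold change 2.08, SE 0.42, edgeR adjusted p = 0.0102). Cd70, the ligand of CD27, rests on few molecules: 20 UMIs in 17 of 712 activated cells and 9 UMIs in 8 of 2099 reference cells (log2 fold change 2.38, SE 0.44, edgeR adjusted p = 0.00517). Cd70 lies next to Tnfsf9 on chromosome 17 (mm10, Tnfsf9 at 57105325 to 57107757 and Cd70 at 57145997 to 57149777). Tnf was at 137 against 72.5 CPM with an edgeR adjusted p of 0.0828, and Tnfsf4 (OX40L) at 7.58 against 2.30 CPM with 0.388. Tnfrsf9, which encodes the receptor of TNFSF9, was at 2.48 against 6.54 CPM (edgeR adjusted p = 0.172).

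Of 17 costimulatory and coinhibitory ligands, only Icam1 was called, and it was higher, where 1.07% of all genes were called higher. Icam1, the adhesion ligand of LFA-1 on T cells, was at 662, 796 and 653 CPM against 202, 271 and 193 CPM (log2 fold change 1.67, SE 0.25, edgeR adjusted p = 9.04e-04). It was detected in 80.1% of thinned activated cells and in 43.8% of thinned reference cells. In barcodes too shallow to count as cells, Icam1 was at 328 CPM over all UMIs, above each reference library and below each activated library. Its detection in reference cells is therefore not read as expression. Cd80 was at 650.1 against 489.7 CPM, Cd86 at 3987 against 3756 CPM, Cd83 at 3006 against 2067 CPM and Cd274 (PD-L1) at 1049 against 718 CPM, all short of the threshold in the fit of all hashtags. Hashtags 6, 8 and 9 alone called 6 of 16 members higher (Icam1, Cd80, Cd83, Cd274, Icosl and Pvr) and 1 lower (Cd24a). Over all genes that fit called 7.32% higher and 5.6% lower.

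Cytokine, IL-1 family and chemokine genes gave 5 calls, all higher, where 1.07% of all genes were called higher. Of 15 cytokines, Ebi3, the subunit shared by IL-27 and IL-35, was called higher (158, 198 and 160.2 against 65.5, 81.7 and 82.9 CPM; log2 fold change 1.36, SE 0.26, edgeR adjusted p = 0.00754). Of 14 genes of the IL-1 family and inflammasome, Il1a (46.9 against 20.2 CPM) and Casp4, a sensor of cytosolic lipopolysaccharide (118 against 49.9 CPM), were higher. Of 12 chemokines, Ccl6 and Cxcl1 were higher. Ccl6 was at 32.3, 34.1 and 34.5 against 14.8, 11.1 and 15.3 CPM, with little spread among activated libraries. Cxcl1, a neutrophil attractant, was at 29.7, 25.3 and 8.57 against 5.49, 6.94 and 3.13 CPM (log2 fold change 2.18, SE 0.37, edgeR adjusted p = 0.00281). Hashtag 9 was the lowest of the activated libraries for Cxcl1, and only 46 of 712 activated cells held a UMI of it. In barcodes too shallow to count as cells, Cxcl1 was at 11.8 CPM over all UMIs. That value lay above each reference library and above the activated library of hashtag 9. Il6 and Il12b, with 29 and 65 UMIs in activated cells, had log2 fold changes of 1.06 and 1.04 and were not called (edgeR adjusted p = 0.487 and 0.669). Hashtags 6, 8 and 9 alone called 2 cytokines higher and 1 lower of 12, 3 IL-1 family genes higher and 1 lower of 13, and 5 chemokines higher and 0 lower of 11. Over all genes that fit called 7.32% higher and 5.6% lower. Nlrp3, the inflammasome sensor, was at 889 against 544 CPM (edgeR adjusted p = 0.327).

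Calls among chemokine receptors depended on the fit. Of 16 tested genes of chemokine and migration receptors, 0 were called higher and 2 lower in the fit of all hashtags (0.746% lower over all genes). In hashtags 6, 8 and 9 alone, 5 of 13 were higher (Ffar2, Ccrl2, Ccr2, Gpr132 and Gpr183) and 3 lower (Gpr35, Ccr9 and Ccr6), against 7.32% higher and 5.6% lower over all genes. Ccr6, the receptor of CCL20, was at 0.743, 0.873 and 2.38 CPM against 19.1, 6.25 and 8.29 CPM (log2 fold change -3.38, SE 0.66, edgeR adjusted p = 0.00764). Ccr9, a gut homing receptor, was at 4.83, 5.68 and 5.48 CPM against 22.1, 16 and 19.8 CPM (log2 fold change -2.04, SE 0.38, edgeR adjusted p = 0.00551). Ccr6 is also among the RORgt+ DC markers, whose sum was lower in activated cells as given above. Its part in the Ccr6 result was not tested. Of 17 genes of prostaglandin, leukotriene and cAMP signalling, Adora2a, an adenosine receptor, was called higher (11.7 against 4.57 CPM), with 5 higher and 2 lower of 16 in hashtags 6, 8 and 9 alone. Ptgs2, the prostaglandin synthase COX-2, was at 632 against 413 CPM (edgeR adjusted p = 0.300).

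Cytokine signalling and survival genes gave calls in the higher direction. Of 13 genes of SOCS and cytokine feedback, 3 were called higher and 0 lower (1.07% higher over all genes). Socs3, a feedback inhibitor of STAT3 signalling, was at 192, 209 and 172 CPM against 45.8, 77.5 and 59.8 CPM (log2 fold change 1.53, SE 0.17, edgeR adjusted p = 2.93e-05). No activated library overlapped the reference range. Stat5a, a signal transducer for IL-2 and GM-CSF, averaged 253 against 119 CPM, and Jak2, the kinase of the GM-CSF receptor, 922 against 579.8 CPM. Il2ra, the alpha chain of the IL-2 receptor (CD25), had the largest fitted rise of the named genes in the fit of all hashtags, but not in hashtags 6, 8 and 9 alone, where Cd70 was higher (2.20 against 2.07). Il2ra was at 21.9, 23.1 and 40.7 CPM against 8.71, 6.48 and 6.26 CPM (log2 fold change 2.59, SE 0.50, edgeR adjusted p = 0.00764). It was carried by 109 of 712 activated cells and 62 of 2099 reference cells. Of 16 survival and apoptosis genes, 3 were called higher and 0 lower, also against 1.07% higher over all genes. Bcl2l11, which encodes the death promoter BIM, averaged 419.5 against 194 CPM. Bcl2a1a and Bcl2a1d, survival genes of 1 family, averaged 574 against 288 CPM and 1221 against 606 CPM. Their sequences are nearly identical, so the split of reads between them is uncertain. Bcl2l1, which encodes BCL-XL, was at 359.9 against 143 CPM (edgeR adjusted p = 0.0655).

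Among the possible partners of BATF, 1 of 19 tested AP-1 and IRF genes was called higher and 0 lower, where 1.07% of all genes were called higher. Irf1 was at 199, 179 and 151 CPM against 58.1, 69.4 and 57.6 CPM (log2 fold change 1.69, SE 0.35, edgeR adjusted p = 0.0131). Irf4, which binds DNA jointly with BATF, was at 459 against 339 CPM, and Batf3, its relative in cDC1, at 95.3 against 83.7 CPM, with edgeR adjusted p of 0.235 and 0.622. Fos was at 258 against 398 CPM (edgeR adjusted p = 0.0593). Hashtags 6, 8 and 9 alone called 4 of the 19 higher and 2 lower (Fos and Fosb), against 7.32% higher and 5.6% lower over all genes. Jdp2, an AP-1 repressor that lies next to Batf on chromosome 12, was called higher (819 against 496 CPM, edgeR adjusted p = 0.0480). Of 19 early response genes, Dusp2, a phosphatase of MAP kinases (337 against 116 CPM), and Csrnp1 (230.3 against 133 CPM) were higher (1.07% of all genes). Hashtags 6, 8 and 9 alone gave 5 higher and 4 lower, against the 7.32 and 5.6% of all genes. Genes of dissociation and heat shock had 0 of 12 called by edgeR and 2 at an unadjusted p under 0.05.

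Identity and antigen presentation genes gave no calls in the fit of all hashtags. Of 22 cDC2 and core DC identity genes, 15 genes of MHC class II presentation, 17 of MHC class I presentation and 20 interferon-stimulated genes, 0 were called by edgeR, with 2, 6, 2 and 3 at an unadjusted p under 0.05. Hashtags 6, 8 and 9 alone gave 5 higher and 5 lower identity genes (higher Cd209a, Clec10a, Itgam, Zbtb46 and Relb, and lower Dpp4, Runx3, Plet1, Csf2rb and Csf1r). That fit also gave 9 higher and 1 lower MHC class II genes and 1 higher MHC class I gene. Over all genes it called 7.32% higher and 5.6% lower. H2-Ab1 was at 6687, 6843 and 6187 CPM against 4835, 5836 and 5109 CPM, with activated libraries above reference libraries. Ciita, the master regulator of MHC class II, was at 234 against 139 CPM. Of 21 genes of the maturation programme of migratory DCs, Marcksl1 was called higher (120.4 against 52.4 CPM) and 0 lower in the fit of all hashtags. That fit called 1.07% of all genes higher. In hashtags 6, 8 and 9 alone, 8 of 20 were higher and 2 lower (Cd63 and Serpinb6b).

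**Figure D3:**
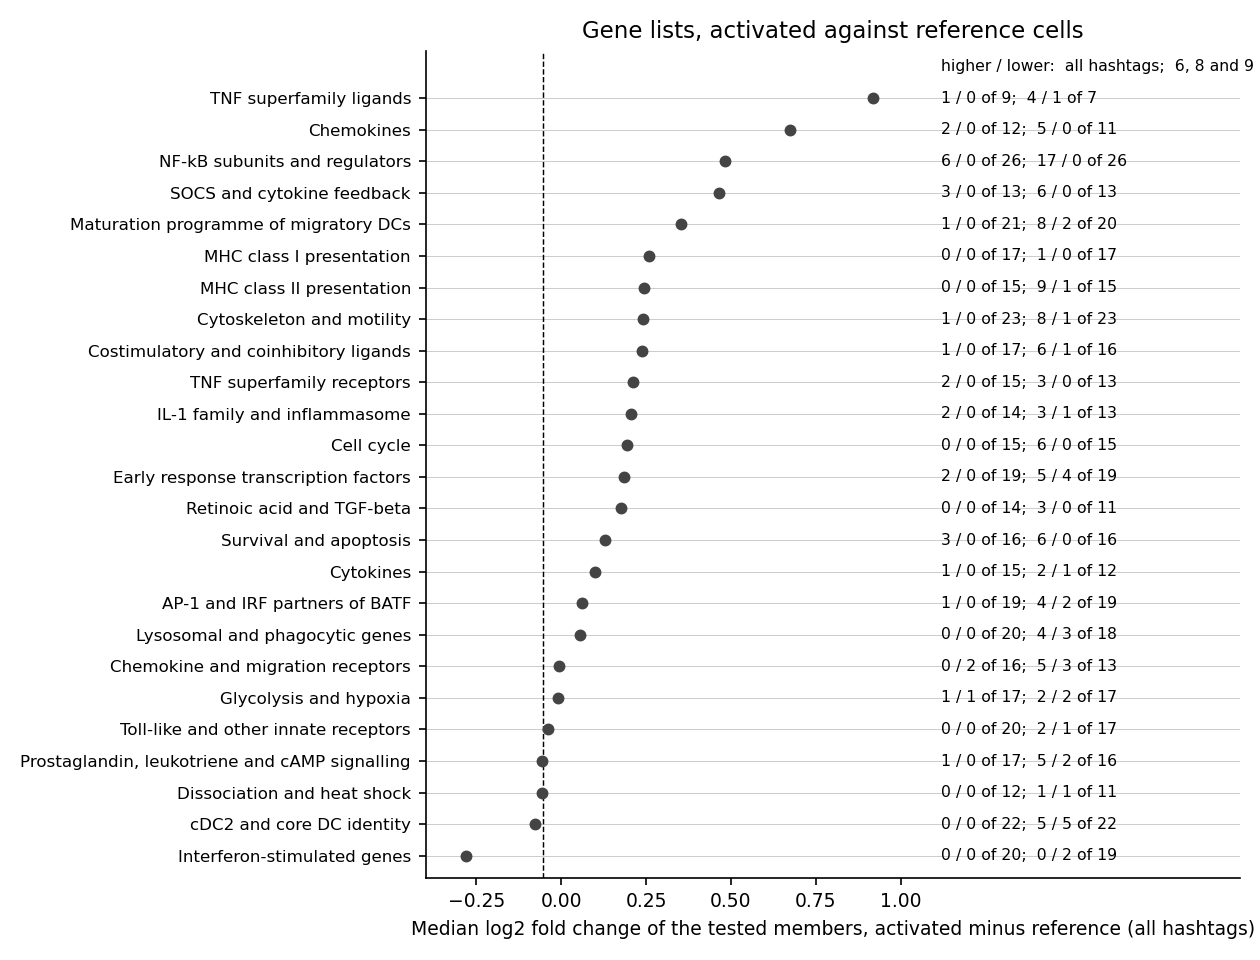
Each point is the median log2 fold change of the tested members of a gene list (x axis) in the fit of all hashtags, and the dashed line is the median of all genes (-0.05). The text at the right gives members called higher and lower of those tested, first in that fit and then in the fit of hashtags 6, 8 and 9 alone; the NF-kB list has 6 higher of 26 in the first and 17 of 26 in the second.

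Outside the lists, the named genes with the largest rises were of mixed function. Rcsd1, a regulator of actin capping, was at 168, 151 and 173 CPM against 40.9, 48.4 and 48.5 CPM (log2 fold change 1.92, SE 0.27, edgeR adjusted p = 5.93e-04). Foxp4, a forkhead transcription factor, averaged 84.3 against 25.6 CPM. Stx11, a syntaxin of membrane fusion, averaged 63 against 23.2 CPM. Atp6v0a1, a subunit of the proton pump of lysosomes, averaged 83.3 against 34.1 CPM. Mmd, Arl5c and Fam49a averaged 480.3 against 163 CPM, 639 against 241 CPM and 463 against 189 CPM. Mthfsl, Tmem39a, Gng4 and Rasgrp1 completed the set of named genes, with log2 fold changes from 1.31 to 1.47.

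Outside the lists, the named genes with the largest falls were Il22ra2, Ass1 and Pxdc1. Il22ra2, which encodes the soluble inhibitor of IL-22 (IL-22BP), was at 0.743, 0.873 and 0.476 CPM against 35, 48.6 and 17 CPM (log2 fold change -5.37, SE 0.78, edgeR adjusted p = 6.86e-04). It was carried by 71 of 2099 reference cells, and the 10 highest of them held 70.5% of its 580 UMIs. Activated cells held 6 UMIs in 712 cells. Ass1, an enzyme of arginine synthesis, was at 2.97, 3.06 and 2.86 CPM against 26.7, 25 and 19.3 CPM (log2 fold change -3.07, SE 0.32, edgeR adjusted p = 1.89e-05). It was found in 195 of 2099 reference cells. S100a4 and S100a6, neighbouring calcium-binding genes on chromosome 3, were at 59.4, 31.9 and 46.7 against 292, 153 and 169.5 CPM and at 82.5, 46.3 and 76.9 against 306, 206 and 213 CPM. Pxdc1 averaged 3.94 against 21.6 CPM and Rundc3b 15.5 against 52.1 CPM. Ern1, a sensor of the unfolded protein response, was also lower (59.1, 48.5 and 59 against 121, 129 and 114 CPM; log2 fold change -1.31, SE 0.25, edgeR adjusted p = 0.00551). Slc16a3, a lactate exporter, averaged 3.32 against 9.29 CPM, while Hk1, which begins glycolysis, rose to 49.5 from 26.7 CPM. In summed libraries, fewer cells with a gene and less RNA of it per cell cannot be told apart. Counts of cells were at hand for some genes. S100a4 was found in 212 of 712 activated cells (429 UMIs) and 604 of 2099 reference cells (4042 UMIs). S100a6 was found in 252 (651 UMIs) and 627 (4815 UMIs). The share of cells with either gene was thus no smaller in activated cells, which were deeper, and the UMIs per carrying cell were fewer. In barcodes of 1 to 100 UMIs they were at 235 and 228 CPM.

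**Figure D4:**
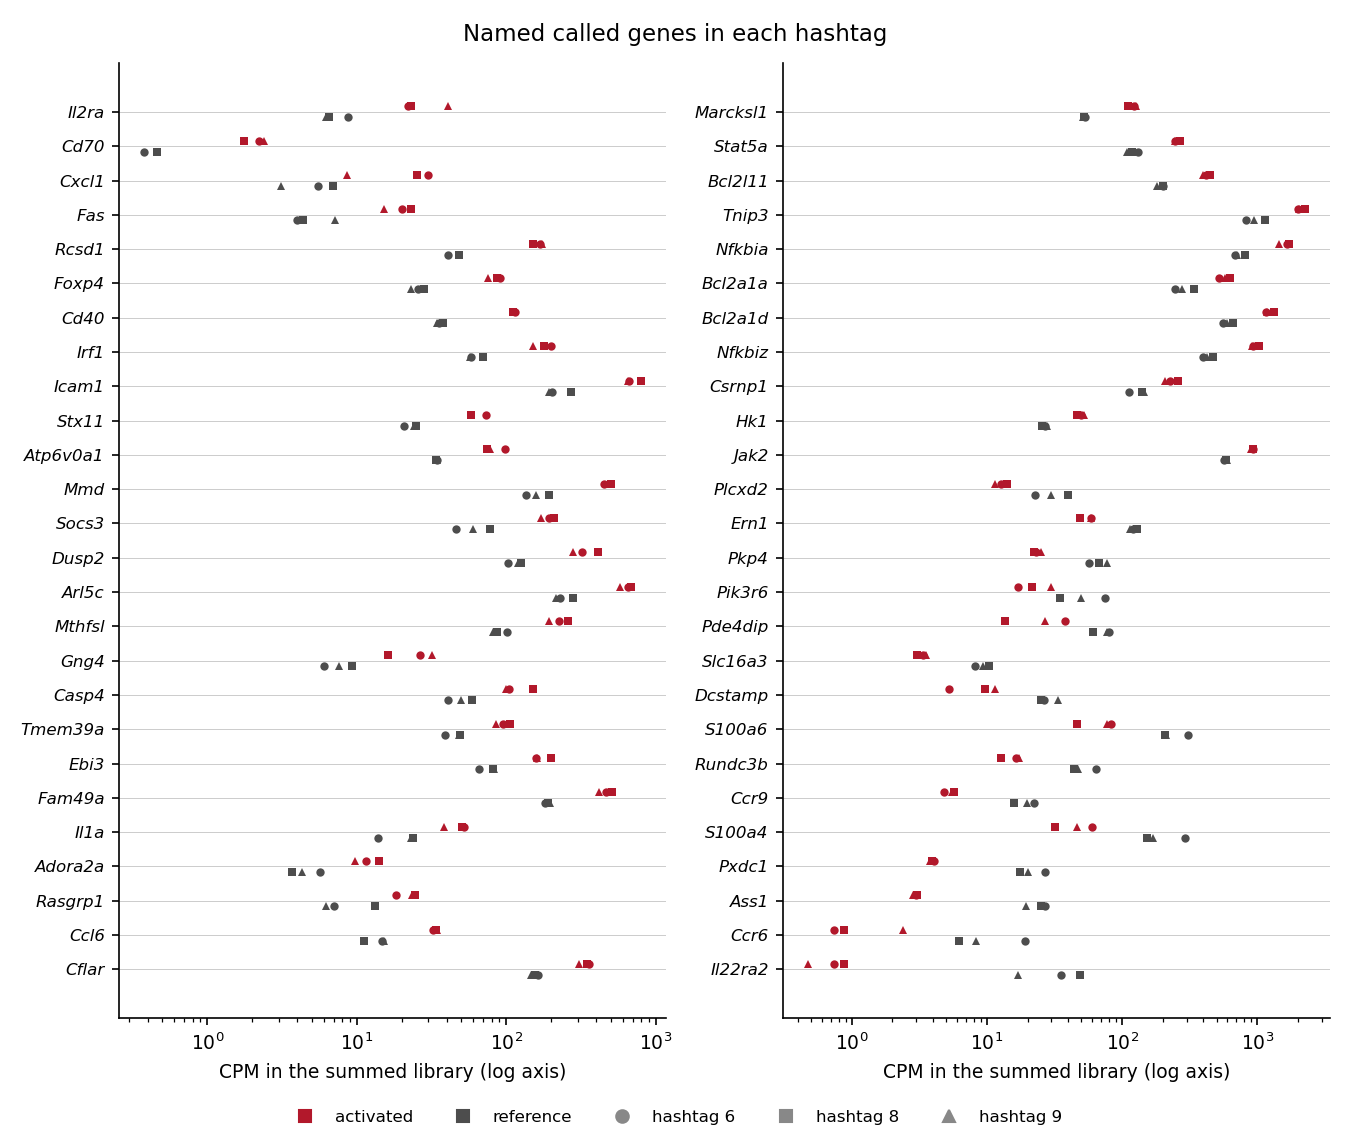
Each row is a named gene called in the fit of all hashtags, and points give its CPM (log axis) in the summed activated (red) and reference (grey) libraries of hashtags 6 (circle), 8 (square) and 9 (triangle). Rows run from the largest rise, Il2ra, to the largest fall, Il22ra2; the rows were chosen as called genes with 1 sign in every hashtag, so the separation of red from grey points largely follows from that choice.

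Cells with only one of the gate genes were compared with activated cells next. Against Batf only cells, 21 of 12065 genes were called (0.174%), 19 higher (0.157%) and 2 lower (0.0166%) in activated cells. They included Icam1 (703 against 341 CPM; log2 fold change 1.37, SE 0.25, edgeR adjusted p = 0.0241), Nfkbia, Nfkbiz, Foxp4, Marcksl1, Dusp2, Mmd and Adora2a. Without hashtag 6, 8 or 9 in turn, or without the hashtag as a term, the count was 0. Without hashtag 2 or 5 it was 8 and 2. The fit of hashtags 6, 8 and 9 alone gave 330 calls (3.27%), 234 higher (2.32%) and 96 lower (0.952%). Against Tnfsf9 only cells, 0 of 12065 genes were called by edgeR (0%). At an unadjusted p under 0.05 there were 292 genes (2.42%), DESeq2 called 1, and hashtags 6, 8 and 9 alone gave 21 calls (0.208%), 15 higher (0.149%) and 6 lower (0.0595%). Both gates share the activated libraries with the main comparison.

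Across the gates, Icam1 averaged 222 CPM in reference, 341 in Batf only, 605 in Tnfsf9 only and 703 in activated cells. Nfkbia averaged 734, 994, 1599 and 1613 CPM in the same order, the last pair within their spread (SD 117 and 139, n = 3). Il22ra2 averaged 33.6, 3.74, 2.29 and 0.697 CPM. Ern1 was at 121 CPM in reference and 103 in Batf only cells and at 51.5 in Tnfsf9 only and 55.5 in activated cells. Ccr7 was highest in Tnfsf9 only cells among these gates (546 ± 61.4 against 482 ± 13.4 CPM in activated cells, SD, n = 3), a difference that was not called (edgeR adjusted p = 1.0).

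**Figure D5:**
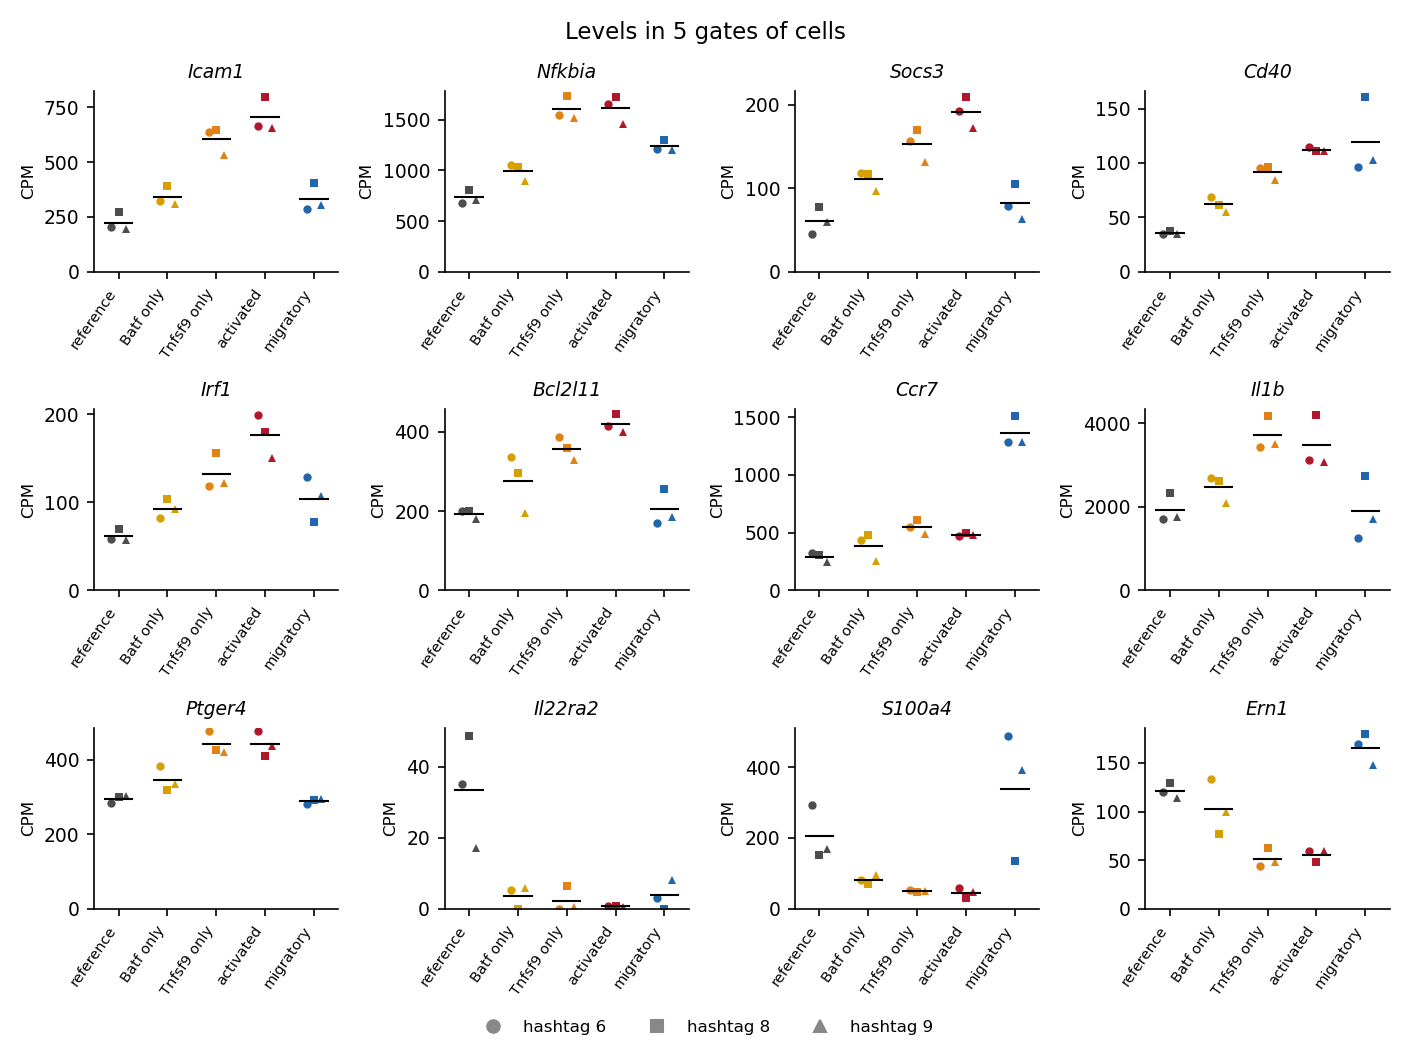
Panels show the CPM (y axis, from 0) of 12 genes in summed libraries of the reference, Batf only, Tnfsf9 only, activated and migratory gates; symbols are hashtags 6, 8 and 9 and bars are their means. Icam1 and Socs3 are highest in activated cells, Ccr7 is highest in migratory cells, and Il22ra2 is highest in reference cells. Between activated and Tnfsf9 only cells, 0 of 12065 genes were called in the fit of all hashtags.

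Migratory cells differed from activated cells at far more genes: 2553 of 12064 (21.2%), 1276 higher (10.6%) and 1277 lower (10.6%) in activated cells. The fit of hashtags 6, 8 and 9 alone gave 2776 calls (27.5%), 1493 higher (14.8%) and 1283 lower (12.7%). Migratory cells numbered 102, 30 and 115 in hashtags 6, 8 and 9. Ccr7 and Fscn1 chose them and are given without a test. Ccr7 was at 1284, 1506 and 1282 CPM in migratory cells of hashtags 6, 8 and 9, above the 468, 495 and 482 CPM of activated cells, and Fscn1 at 467 against 15.5 CPM. Of 21 genes of the maturation programme, 0 were higher and 16 lower in activated cells. Il4i1, Socs2 and Cacnb3 averaged 13.1, 4.27 and 4.63 CPM in activated and 169, 153 and 91.7 CPM in migratory cells. Ccl22, a chemokine of mature DCs, was at 42.3 against 208 CPM (log2 fold change -3.30, SE 0.66, edgeR adjusted p = 0.00147). Without hashtag 6 or 9 the count of calls was 1158 and 1551.

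MHC genes split by class in this comparison. Of 15 MHC class II genes, 9 were higher and 1 lower in activated cells, and of 17 MHC class I genes, 0 were higher and 11 lower. Over all genes, 10.6% were higher and 10.6% lower. H2-Ab1 averaged 6572 against 4658 CPM (log2 fold change 0.70, SE 0.15, edgeR adjusted p = 0.00194). Nlrc5, which drives MHC class I genes, averaged 20.4 against 80.7 CPM (log2 fold change -1.95, SE 0.22, edgeR adjusted p = 4.96e-06). Interferon-stimulated genes had 0 higher and 6 lower of 20.

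Of 19 early response transcription factors, 7 were higher and 0 lower in activated than in migratory cells, against 10.6% higher and 10.6% lower over all genes. Socs3 (191 against 82.5 CPM; log2 fold change 1.40, SE 0.17, edgeR adjusted p = 1.06e-05), Nlrp3 (889 against 397 CPM) and Il1a (46.9 against 18.4 CPM) were also higher. Il1b was at 3468 against 1901 CPM (log2 fold change 0.96, SE 0.24, edgeR adjusted p = 0.00757). Cd70, Tnfsf4 and Tnfrsf9 were lower in activated cells, Tnfrsf9 at 2.48 against 62.2 CPM (log2 fold change -4.66, SE 0.46, edgeR adjusted p = 8.20e-07). Nfkb2 and Relb, of the alternative NF-kB pathway, were lower and Nfkb1, Nfkbid, Nfkbiz and Tnip3 higher.

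Named genes with large rises over migratory cells were Fcgr3, a receptor for IgG (22.5 against 4.78 CPM; log2 fold change 2.65, SE 0.35, edgeR adjusted p = 2.28e-05), Il18rap, a chain of the IL-18 receptor (53.6 against 13.3 CPM), Ltb4r1, a leukotriene B4 receptor (20.7 against 9.20 CPM) and Siglecf. Pnliprp1, a pancreatic lipase-related gene, was also called (log2 fold change 2.70, SE 0.93, edgeR adjusted p = 0.0426), but its 270 UMIs lay in 19 activated cells, and the 10 highest of those cells held 96.7% of them. Grid1, Crispld2, Mdk, Tmod2, Tubb2b and Col17a1 were the named falls. Col17a1 is one of the RORgt+ DC markers, and these summed to 12 to 211 CPM in migratory libraries of the same hashtags against 2.75 to 4.17 CPM in activated libraries, with Prdm16 at up to 116 and Col17a1 at up to 59.6 CPM in migratory libraries. Their part in the comparison with migratory cells was not tested. Grid1 had 2 UMIs in activated and 320 in migratory cells, a ratio of 454 with a counting interval of 125 to 3763. The 10 highest migratory cells held 94.7% of those 320 UMIs.

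Most genes varied little among the 3 activated libraries. Of 5236 genes with a mean of at least 20 CPM, 4939 (94.3%) had a highest value at most 1.5 times the lowest, and 40 exceeded 2 times. Hashtag 9 was lowest for the chemokines Ccl3 (658, 679 and 259 CPM in hashtags 6, 8 and 9) and Ccl4 (1927, 1902 and 810.0 CPM), and for Cxcl1. The largest ratios belonged to haemoglobin genes: Hbb-bs was at 1238, 21 and 15.7 CPM, and 1 cell of hashtag 6 held 98.2% of that library's Hbb-bs UMIs.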

How the data were processed

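Droplet RNA of sorted DCs and hashtag tags were measured in 1 RNA and 1 hashtag library. The deposited matrix holds raw UMI counts, made by the authors with Cell Ranger 8.0.1 on mm10, per the submitters' processing notes; the deposited assignment table gives each barcode's hashtag and its assignment probability as a fraction. Of 27679 barcodes in that table, 19239 had 1 hashtag; 1294 with fewer than 500 genes and 3627 over 10% mitochondrial UMIs were left out, and 15480 cells with 173812507 UMIs remained. Barcodes called multiplets by the hashtags (4815) were left out, and no further doublet caller was run. The other 15 columns of the assignment table were not used.

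Raw UMIs were summed per gate and hashtag (at least 10 cells), giving 24 libraries, and tested with edgeR 4.0.16 in R 4.3.3. The fit used TMM scaling, filterByExpr, a quasi-likelihood F test, class and hashtag as terms and 14 residual degrees of freedom. Benjamini-Hochberg adjustment ran over all 12074 genes, gate genes included, and genes were called under 0.05. Gate genes were then left out of the counts of calls. For activated cells n is 3 hashtags. CPM values in the text use TMM-scaled library sizes, and sums of marker genes use plain library totals. Reference means cover hashtags 6, 8 and 9. A hashtag marks the same biological replicate in every gate, per the labels, so the hashtag was kept as a block; deviations of the same hashtag in 2 gates correlated weakly (-0.0091 to 0.092). On simulated counts of 10797 genes for activated against reference cells, 60.6% of log2 changes of 1 and 96.7% of changes of 2 were called, and 0.0094% of unchanged genes. The simulation gave all libraries the same mean profile and the same dispersion, apart from the changed genes. It held no differences between hashtags or between the other gates, which the real libraries have. These shares check the code and do not give the sensitivity or false calls of the real fit. Alternatives used DESeq2 1.42.0, other scaling, filters, gates and left-out hashtags. Promoters and motifs came from RefSeq windows of 300 bases on GRCm38.p6.

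Named genes were the gate and marker genes, up to 4 called genes per list, the 12 highest and 12 lowest called genes outside the lists with at least 20 CPM and 1 sign in every hashtag, and the 6 highest and 6 lowest against migratory cells; genes outside this rule are given as members of the lists or as values chosen after they were seen (Jdp2, haemoglobin, Ccl3, Ccl4 and Grid1's cells). The members, gates and 25 gene lists were chosen with earlier results of these data known. Results of some genes are not reported here.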

Additional observations from a re-analysis of the deposited data

Results flagged for a closer look

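Signal of the gate was also seen in barcodes that the comparisons leave out. Among barcodes the deposited table calls multiplets, 285 of 4231 that passed the filters on genes and mitochondrial UMIs met the gate (6.74%, Clopper-Pearson 95% interval 6.00 to 7.53%). Among barcodes the table leaves unassigned, 34 of 1401 met it (2.43%, 1.69 to 3.37%). Among blank barcodes 1 of 716 met it (0.140%). These barcodes carry no single hashtag, so no share per replicate can be given. Of 12 sets of 6 hashtag values examined for a value far from the rest, none was found; chance gives about 1 in 20.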

How the results depend on the processing

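Counts of calls changed with the fit. Over 1194 values of 67 results for named genes under the alternatives, 0 reversed, 1005 stayed on their side of the threshold, 177 lost the call and 12 gained it. For activated against reference cells the main count of 219 became 521 with DESeq2, 444 with no filter, 26 with no replicate block, 1882 with only the libraries of the 2 classes, 861 within the interquartile range of depth, 363 with the stricter gate and 1303 with hashtags 6, 8 and 9 alone; leaving out 1 hashtag gave 19 to 279. For activated against migratory cells (2553) leaving out 1 hashtag gave 1158 to 2344, and no replicate block gave 2517, but with 846 higher and 1671 lower in place of 1276 and 1277, of which 709 and 1101 were among the main calls. For activated against Batf only cells (21) the count was 100 with DESeq2, 159 with no filter, 0 with no replicate block, 476 with only the 2 classes, 183 within the depth range, 2 with the stricter gate, 32 at an assignment probability of 0.99, 5 at 5% mitochondrial UMIs and 330 with hashtags 6, 8 and 9 alone; leaving out 1 hashtag gave 0 to 21. For activated against Tnfsf9 only cells (0) it was 1 with DESeq2, 2 with no filter, 110 with only the 2 classes, 8 within the depth range and 21 with hashtags 6, 8 and 9 alone, and 0 with no replicate block. The cause of these changes was not tested beyond the libraries each fit holds. With no replicate block, 42 of the 67 named results lost their call.

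The shares in hashtags 6, 8 and 9 became 1.11, 1.75 and 1.13% when thinned, 7.77, 9.38 and 7.55% among cells of at least 5000 UMIs without thinning, 3.20, 3.57 and 2.61% with the stricter gate and 19.2, 19.9 and 16.8% with the looser gate; the looser gate also gave 0.337, 0.618 and 0.534% in hashtags 2, 4 and 5. Hashtags 6, 8 and 9 alone and the share among deep cells were chosen after seeing the data. At this depth, genes with few UMIs, such as Cd70 with 20 and Il22ra2 with 6 in activated cells, are limited by counting error.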

Other observations

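Cell cycle genes gave 0 of 15 calls by edgeR in the fit of all hashtags (2 at an unadjusted p under 0.05) and 6 higher and 0 lower in hashtags 6, 8 and 9 alone (Mki67, Top2a, Ccnb2, Birc5, Stmn1 and Ccnd2). Over all genes that last fit called 7.32% higher and 5.6% lower. Mki67, a marker of cycling cells, was at 239, 258 and 227 CPM in activated cells against 94.6, 95.3 and 85.3 CPM in reference cells (log2 fold change 0.87, SE 0.38, edgeR adjusted p = 0.296 in the fit of all hashtags; log2 fold change 1.39, SE 0.10, edgeR adjusted p = 1.67e-08 in hashtags 6, 8 and 9 alone). Its mean was 149.6 CPM in Batf only, 190.3 in Tnfsf9 only and 136 in migratory cells. Thinned to 5000 UMIs, 350 of 710 activated cells (49.3%) and 364 of 1666 reference cells (21.8%) held an Mki67 UMI, as did 29.7% of macrophage-gate cells. Barcodes of 1 to 100 UMIs held Mki67 at 91.0 CPM, a level like that of reference cells, so detection in reference cells is not read as expression. Top2a, which is expressed in the later phases of the cycle, was found in 12.7 and 8.34%. No phase was called.

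Some called genes lay next to each other. Of the 129 genes called higher, 22 (17.1%) had a called higher gene as the next tested gene on the chromosome, against 1.91% of genes not called; no test was run. The runs included Mthfsl, Gm10634 and Bcl2a1d on chromosome 9, Stat5b and Stat5a on chromosome 11, Mmd and Gm45716, and Fam49a and 4921511I17Rik. Some of these overlap, as Gm10634 and Mthfsl do (starts at 88719629 and 88688602, with Mthfsl ending at 88720296 in mm10), so reads may be split between them. Both gate genes had a called neighbour, Cd70 beside Tnfsf9 and Jdp2 beside Batf. Their other tested neighbours were not called: Erg28 (log2 fold change -0.09, edgeR adjusted p = 0.850) and Gm11110 (log2 fold change 0.999, edgeR adjusted p = 0.0743). Whether shared reads account for any of these pairs was not tested.

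Single cells carried some of the largest differences between libraries. The pancreatic gene Pnliprp1 was at 34.2, 5.68 and 39.3 CPM in activated libraries of hashtags 6, 8 and 9. Ctrb1, which encodes a digestive enzyme, was at 26.7, 6.11 and 76.2 CPM, and Prss2 and Reg1 were likewise lowest in hashtag 8. In hashtag 6, 1 cell held 96.7% of the Pnliprp1 UMIs and 86.1% of those of Ctrb1. Cxcl10 was at 5.20, 53.7 and 6.90 CPM, and 1 cell of hashtag 8 held 80.5% of that library's UMIs of it. In reference cells, 1 cell of hashtag 9 held 98.2% of the Ctrb1 UMIs, and Hbb-bs was at 22, 934 and 506 CPM.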
